A study of Mus musculus with 24 samples.

Results

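The wild type baseline of the pharyngeal arches was described from 4 of the 24 RNA-seq libraries of a mouse craniofacial study, wild type replicates 1 to 4, which were chosen by their label alone. These embryos carried +/+ genotypes for both Kat6a and Dlx5, the genes deleted elsewhere in the study, were on a C57BL/6 background, and were female at E10.5 (embryonic day) according to the design text. All 4 libraries held polyadenylated RNA of arches 1 and 2 together and lay in batch 2, one of 2 mouse facilities. The labels name them biological replicates and do not say how many embryos went into a library. The 20 mutant libraries were not used, so no level here is set against another genotype and no test between groups was made.

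The pharyngeal arches are paired swellings on the sides of the embryonic head. Each is built of mesenchyme, mostly from the cranial neural crest, around a core of mesoderm that gives muscle and vessels, and is covered by surface ectoderm outside and pharyngeal endoderm inside. Arch 1 forms the jaws with the malleus and incus of the middle ear, and arch 2 forms the stapes and part of the hyoid. Homeobox genes give the arch mesenchyme its position, with Dlx genes along the axis from upper to lower jaw and Hox genes marking arch 2 and those behind it. In RNA from whole tissue, fewer cells of a type and less RNA per cell cannot be told apart.

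The libraries held 28.2, 12.4, 11.5 and 11.6 M counts on genes in replicates 1 to 4. Levels are given below as CPM, the count of a gene scaled to the library total, or, wherever genes are compared with each other, as TPM, for which the count is divided by the length of the gene before scaling. A gene counted as detected when it reached 1 TPM in all 4 libraries, and an error after ± is the SD over these libraries (n = 4). The floor of 3 counts stood at 0.106 CPM in replicate 1 and 0.242 to 0.26 CPM in the other 3. Between libraries, the correlation of log2 CPM across genes, which are not independent replicates, was 0.9869 to 0.9951. Chi-square per degree of freedom between the counts of 2 libraries was 6.68 to 23.3, where counting error alone gives 1. It shows spread beyond counting error and not whether the libraries come from separate embryos. Every library was counted as a sample of its own, as the labels name them biological replicates. Replicate 4 stood apart in its long genes: over the genes of 4484 bases or longer, the median log2 deviation from the mean of the 4 libraries was 0.16, -0.01, 0.06 and -0.25 in replicates 1 to 4. Replicate 2 stood apart in its neuronal genes, as described with the cell type markers.

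Of 26611 genes, 13362 were detected (50.2%), among them 12297 of 20983 protein-coding genes (58.6%). No count fell on 6932 genes in any of the 4 libraries. The median gene stood at 1.6 TPM and the median protein-coding gene at 5.29 TPM, which are the backgrounds for the gene lists below. Mean levels of 10 to 100 TPM were held by 7558 genes, of 100 to 1000 TPM by 2251 genes and of 1000 TPM or more by 77 genes. The 100 most abundant genes took 18.7% ± 0.711 of all TPM (SD, n = 4) and 13.5% ± 0.235 of all counts.

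The list of abundant genes mixed housekeeping transcripts, imprinted genes and the globins of embryonic red cells. Eef1a1, a translation elongation factor, had 5290, 5533, 5721 and 5672 TPM in replicates 1 to 4. Hsp90ab1, a chaperone, had 5072, 5232, 5268 and 4981 TPM and was the most abundant gene of all by CPM. Both varied little, with a coefficient of variation over the 4 libraries of 3.48% for Eef1a1 and 2.62% for Hsp90ab1. The mitochondrial gene COX1, a subunit of cytochrome c oxidase, led by TPM with 9350, 6990, 6660 and 6305 TPM, and the 15 mitochondrial genes in the table together took 2.92% ± 0.422 of TPM. The cell cycle kinase gene Cdk4 averaged 2170 ± 103 TPM and the actin regulators Cfl1 and Pfn1 2078 ± 149 and 1979 ± 131 TPM (SD, n = 4). Of the 87 cytosolic ribosomal protein genes, 83 were detected, and together they took 4.62% ± 0.334 of TPM. Many of these highly expressed genes have processed pseudogenes, so part of their reads may be assigned to a near-identical copy.

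Of the 20 most abundant genes outside the ribosomal protein genes, 3 were imprinted. H19 (chromosome 7, 142575530 to 142578146 in GRCm38), a long noncoding RNA expressed from the maternal allele, had 3314, 3496, 3606 and 3852 TPM in replicates 1 to 4. Mest, a paternally expressed gene, had 2990, 2818, 2890 and 2835 TPM, and Nnat, also paternally expressed, had 1722, 2028, 1963 and 2099 TPM. Among the long noncoding RNAs, H19 was the most abundant, followed by Snhg1 at 497 ± 88.1 TPM and Xist at 206 ± 91.8 TPM, and 365 of 2077 genes of that class were detected. One entry of the abundant list rests on its length: Mir682, a gene model of 96 bases, had a mean of 5279 TPM at 200 CPM, which placed it at rank 1042 by CPM.

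**Figure D1:**
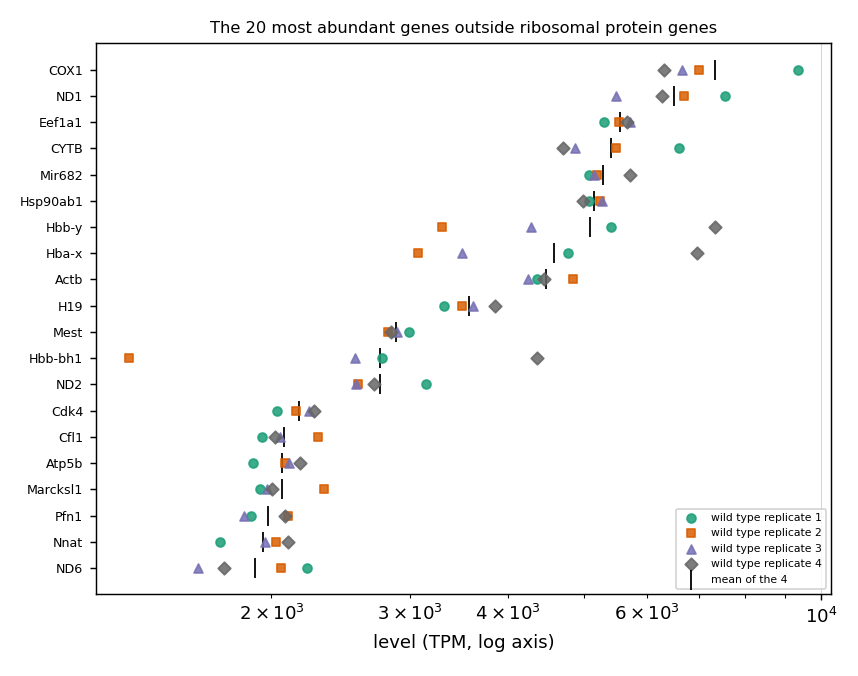
Level of the 20 most abundant genes outside the ribosomal protein genes, in TPM on a log axis, for each of the 4 wild type libraries, with the mean as a bar. The 3 embryonic globin genes Hbb-y, Hba-x and Hbb-bh1 are spread widest, and replicate 2 is the lowest library for each of them.

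The embryonic globins made up the third kind of abundant gene. Hbb-y, the embryonic epsilon-type beta globin, had 5410, 3300, 4279 and 7336 TPM in replicates 1 to 4. Hba-x, the embryonic alpha-type (zeta) globin, had 4771, 3075, 3496 and 6961 TPM, and Hbb-bh1 had 2763, 1320, 2558 and 4347 TPM. Replicate 4 was the highest and replicate 2 the lowest library for all 3 genes. Their proportions moved less than their levels. The ratio of Hbb-y to Hba-x was 1.13, 1.07, 1.22 and 1.05. That of Hbb-bh1 to Hbb-y was more spread, at 0.511, 0.4, 0.598 and 0.593. The adult alpha globins Hba-a1 and Hba-a2, which are near-identical copies that share reads, were lower, and Hba-x stood at 7.22 ± 0.475 times their sum. The globin genes together took 1.37%, 0.813%, 1.09% and 1.98% of TPM.

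Promoter sequences are shown for 5 genes that the account turns on: the embryonic globins Hba-x and Hbb-y, the arch mesenchyme factors Twist1 and Barx1, and Gpc3, the most abundant matrix gene. Each is the 120 bases directly before the annotated start, 5′ to 3′ on the strand of the gene, from RefSeq on GRCm38.p6. Capitals mark matches, on either strand, to TATAAA between 40 and 20 bases before the start, to CCAAT, or to GGGCGG. Matches of each motif were counted on their own and may share letters. The stretches are chr11:32276480-32276599 (plus strand) for Hba-x, chr7:103853208-103853327 (minus strand) for Hbb-y, chr12:33957551-33957670 (plus strand) for Twist1, chr13:48662916-48663035 (plus strand) for Barx1 and chrX:52613975-52614094 (minus strand) for Gpc3.
Hba-x: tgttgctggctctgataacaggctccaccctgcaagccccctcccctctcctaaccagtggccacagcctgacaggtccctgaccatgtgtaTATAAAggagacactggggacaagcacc
Hbb-y: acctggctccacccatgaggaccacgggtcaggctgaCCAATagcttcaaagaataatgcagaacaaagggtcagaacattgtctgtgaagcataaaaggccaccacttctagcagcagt
Twist1: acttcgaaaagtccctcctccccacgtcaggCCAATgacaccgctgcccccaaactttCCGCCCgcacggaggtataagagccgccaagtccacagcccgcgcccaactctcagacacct
Barx1: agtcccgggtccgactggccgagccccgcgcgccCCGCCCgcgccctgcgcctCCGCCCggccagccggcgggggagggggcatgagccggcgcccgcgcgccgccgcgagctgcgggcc
Gpc3: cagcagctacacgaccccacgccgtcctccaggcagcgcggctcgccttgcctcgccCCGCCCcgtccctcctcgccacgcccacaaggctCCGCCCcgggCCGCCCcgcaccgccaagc

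In these windows Hba-x carried a TATAAA match, Hbb-y a CCAAT match, Twist1 a match to each of CCAAT and GGGCGG, Barx1 2 matches and Gpc3 3 matches to GGGCGG. The CpG ratio, observed over expected CpG in the 250 bases before the start, was 0.05 for Hba-x and 0.09 for Hbb-y, against 0.74 for Twist1, 0.89 for Barx1 and 0.94 for Gpc3. Over all 22271 promoters of 18458 genes in the table, TATAAA in that position was found in 2.84%, and within 250 bases before the start GGGCGG was found in 42.4% and CCAAT in 35.4%, and the median CpG ratio was 0.52. Promoters of genes detected in the arches held TATAAA in 1.2%, GGGCGG in 58.6% and CCAAT in 35.4%, with a median CpG ratio of 0.72. Promoters of genes with no count held TATAAA in 6.76%, GGGCGG in 7.59% and CCAAT in 38.0%, with a median CpG ratio of 0.15. For the listed transcription factor genes, where the genes not detected include some with counts, GGGCGG was found in 62.0% of the 213 promoters of detected factors and in 50.9% of the 171 promoters of factors that were not detected, with median CpG ratios of 0.69 and 0.54, and CCAAT in 36.2% and 43.3%. A match is a description of letters and does not show that a factor binds there.

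The transcription factor lists held 422 genes, of which 227 were detected (53.8%), with a median of 2.86 TPM. Tead2, bHLH factors and homeobox genes of the mesenchyme stood highest, while Hox, Pax and Nkx genes were largely low. The highest factor was Tead2, which binds DNA for the co-activators Yap and Taz, with 690, 792, 732 and 754 TPM in replicates 1 to 4. It stood at 6.37 ± 1.15 times the sum of Tead1, Tead3 and Tead4. Next came Id3, an inhibitor of bHLH factors, with 526, 550, 588 and 668 TPM, and the 2 ranges did not overlap.

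Of 68 bHLH genes, 30 were detected and 12 had no count. Its 6 highest members were the inhibitors Id3, Id2 and Id1, the E proteins Tcf3 and Tcf12, broadly expressed partners of tissue-specific bHLH factors, and Twist1. Tcf3 averaged 397 ± 21.2 TPM and Id2 320 ± 25.1 TPM, ranges that did not overlap, while Id1 averaged 292 ± 43.2 TPM and Tcf12 247 ± 27.1 TPM. Among the tissue-specific members, Twist1, which is needed in cranial neural crest mesenchyme, had 266, 346, 284 and 299 TPM. Its paralogue Twist2 had 96.2, 128, 122 and 113 TPM, so that Twist1 stood at 2.61 ± 0.196 times Twist2 and the ranges were far apart. Hand2, a regulator of the lower jaw, had 98.2, 140, 125 and 131 TPM, and its relative Hand1, which marks the distal tip of the arch, had 47.6, 66.4, 58.5 and 59.3 TPM. Replicate 1 was the lowest library for all 4 of these genes.

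The homeobox lists held 127 genes, of which 58 were detected (45.7%), with a median of 0.824 TPM. Several of the highest members are genes of arch mesenchyme, and the broadly acting cofactor Pbx2, described with its family below, stood among them at 281 ± 4.3 TPM. Barx1, a marker of the arch mesenchyme that forms molars and jaw joints, had 261, 341, 267 and 292 TPM in replicates 1 to 4. Prrx1 and Prrx2, paired-related factors of craniofacial mesenchyme, had 283, 290, 262 and 208 TPM and 211, 261, 223 and 248 TPM. The ranges of Barx1, Prrx1 and Prrx2 overlapped, so their order is not set by these libraries. Pitx1, a factor of the mandibular arch and hindlimb, averaged 115 ± 18.7 TPM and did not overlap with Prrx2. Msx2 averaged 86.7 ± 7.79 TPM and Msx1 65.7 ± 11.1 TPM, and their ranges did not overlap. Genes of frontonasal and maxillary mesenchyme stood at 53.1 ± 10.9 TPM for Alx4 and 23.2 ± 3.93 TPM for Alx1.

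All 6 Dlx genes were detected, with a summed level of 501, 534, 463 and 463 TPM. Dlx2, which acts along the whole proximal to distal extent of arch 1, had 154, 143, 119 and 127 TPM. Dlx5, the factor of lower jaw identity, had 120, 142, 119 and 120 TPM, a range that overlapped with that of Dlx2. Its partner Dlx6 averaged 68.3 ± 9.01 TPM, giving a ratio of Dlx5 to Dlx6 of 1.91, 1.74, 1.76 and 1.94. Dlx3 stood at 97.9 ± 5.86 TPM and Dlx1 at 56.5 ± 4.53 TPM, whereas Dlx4 stood at 6.5 ± 0.814 TPM. Antisense transcripts overlap Dlx1 and Dlx6, and without a known strand setting of the counting their reads cannot be told from those of these genes. Of the wider axis lists, all 14 genes of the distal list and all 12 of the proximal list were detected, with medians of 63.1 and 59.8 TPM. Dlx1 and Dlx2 are on the proximal list, so its values do not stand for proximal tissue alone. The proximal list was led by the orphan receptor gene Nr2f1 with 197, 230, 172 and 178 TPM, above the TALE factor Meis2 at 138 ± 10.9 TPM with no overlap.

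The Hox genes were nearly silent. Of 39 Hox genes 3 were detected (7.69%), 16 had no count, and the median was 0.0125 TPM. Hoxa2, which sets the identity of arch 2, had 13.0, 19.8, 16.6 and 21.7 TPM in replicates 1 to 4. Hoxb2 had 7.24, 7.72, 8.22 and 12.7 TPM, and Hoxb3 had 3.55, 3.33, 2.46 and 3.14 TPM. These 3 ranges did not overlap. Hoxa3, a gene of arch 3, averaged 0.322 ± 0.175 TPM. The summed Hox level was 26.7, 33.2, 29.8 and 41.3 TPM, lowest in replicate 1 and highest in replicate 4.

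The other homeobox families and the Pax genes, which the homeobox lists do not count, ranged widely in the share of genes detected. The TALE list holds Meis, Pbx, Tgif, Pknox, Irx and Mkx genes, some of which encode cofactors of Hox and other homeodomain proteins. Of its 18 genes 17 were detected, led by Pbx2 with 283, 287, 277 and 279 TPM, a coefficient of variation of 1.53%. Of the LIM homeobox genes 6 of 12 were detected, led by Lhx8 at 130 ± 15.0 TPM and Lhx6 at 49.5 ± 5.96 TPM, both factors of oral mesenchyme in arch 1, and their ratio was 2.62 ± 0.114. Of 15 POU genes 4 were detected, with Pou3f3, a maxillary factor, at 36.8 ± 4.62 TPM. Of 9 Pax genes 3 were detected, namely Pax9 at 8.11 ± 0.72 TPM, Pax1 at 5.23 ± 0.818 TPM and Pax3 at 2.71 ± 1.68 TPM. Of 14 Nkx genes 4 were detected, with Nkx2-3, a gene of pharyngeal endoderm, highest at 8.9 ± 1.98 TPM.

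**Figure D2:**
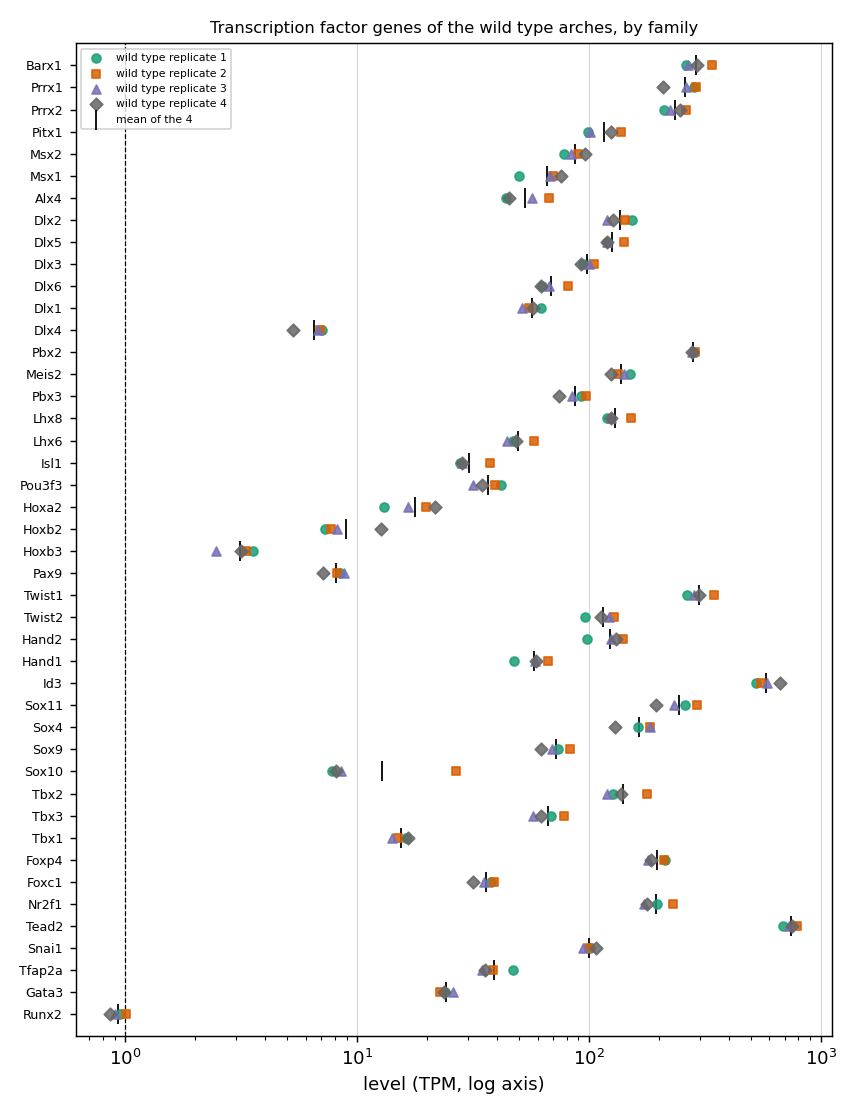
Level of 44 transcription factor genes in TPM on a log axis for each of the 4 wild type libraries, with the mean as a bar and the detection threshold of 1 TPM as a dashed line. Homeobox families and Pax9 come first and other families after them, and Hoxa2, Hoxb2 and Hoxb3 stand far below Barx1, Prrx1 and Prrx2.

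Outside these families, the Sox list had 15 of 20 genes detected. Sox11 and Sox4, SoxC factors of embryonic progenitors, averaged 244 ± 40.3 and 165 ± 24.8 TPM, with no overlap, and Sox9, the factor of chondrogenic mesenchyme, had 73.6, 82.4, 69.5 and 62.3 TPM. Of 44 forkhead genes 28 were detected, led by Foxp4 at 197 ± 17.2 TPM and by the cell cycle factor Foxm1 at 117 ± 9.04 TPM. Foxc1, a factor of head mesenchyme, had 37.8, 39.0, 35.4 and 31.6 TPM. Of 17 T-box genes 6 were detected: Tbx2 had 127, 178, 120 and 138 TPM and Tbx3 averaged 66.5 ± 8.75 TPM, while Tbx1, a gene of pharyngeal endoderm and core mesoderm, had 16.3, 15.0, 14.1 and 16.6 TPM. The neural crest factors Snai1 and Snai2 averaged 100 ± 5.39 and 53.0 ± 2.24 TPM. Among the AP-2 factors, Tfap2a, a regulator of crest and ectoderm, averaged 38.9 ± 5.54 TPM, and the list had 3 of 5 genes detected. The hedgehog effectors Gli3 and Gli1 stood near each other, at 62.8 ± 15.8 and 60.1 ± 4.49 TPM with overlapping ranges. Gli2 averaged 43.7 TPM, below Gli1 with no overlap. The Runx list was split, since the common partner Cbfb averaged 182 ± 16.5 TPM while Runx1 stood at 2.63 ± 0.527 TPM and Runx2, the factor of osteoblasts, at 0.946, 1.01, 0.903 and 0.859 TPM.

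The matrix lists held 222 genes, of which 166 were detected (74.8%), with a median of 9.43 TPM. Of 44 collagen genes 30 were detected, and their summed level was 2445, 2371, 2448 and 2086 TPM in replicates 1 to 4. Col2a1, the collagen of cartilage and of precartilage mesenchyme, led with 503, 472, 460 and 420 TPM and made up 19.8% of the sum, above all others with no overlap. Col18a1 and Col3a1, a basement membrane and a fibrillar collagen, averaged 297 ± 27.9 and 288 ± 28.4 TPM with overlapping ranges. The basement membrane pair Col4a1 and Col4a2 averaged 223 ± 27.5 and 154 ± 21.4 TPM, a ratio of 1.39, 1.43, 1.54 and 1.46. The chains of type I collagen were unequal, with Col1a1 at 34.1, 37.7, 34.7 and 28.1 TPM and Col1a2 at 109, 122, 122 and 85.6 TPM, a ratio of 0.309 ± 0.0177. Type I collagen protein in bone and skin holds more alpha 1 than alpha 2 chains, and the deposited gene lengths enter both levels.

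Cartilage and bone genes were present in part. On the list of cartilage and bone differentiation 9 of 15 genes were detected. Besides Col2a1, the list was led by Col9a1 with 140, 145, 161 and 132 TPM, Col11a1 at 38.5 ± 5.07 TPM and Sox5 at 19.2 ± 3.21 TPM. Acan, the large proteoglycan of mature cartilage, stood at 0.306, 0.14, 0.121 and 0.0837 TPM, so that Col2a1 was 1640, 3360, 3780 and 5020 times higher, a ratio resting on few counts of Acan. Sp7, the osteoblast factor downstream of Runx2, averaged 2.27 ± 0.667 TPM. The proteins that fold and process collagen were high: Serpinh1, the collagen chaperone, had 707, 567, 697 and 682 TPM, and P4hb, a subunit of prolyl hydroxylase, had 503, 422, 502 and 483 TPM. Of that list 23 of 26 genes were detected.

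Gpc3, a cell surface heparan sulfate proteoglycan that binds hedgehog and other growth factors, was the most abundant matrix gene with 856, 909, 925 and 891 TPM. It made up 44.0% of the summed proteoglycan list and did not overlap with Gpc1, the next member, at 219 ± 16.7 TPM. The hyaluronan synthase gene Has2 had 24.3, 22.7, 25.7 and 21.2 TPM, 8.11 ± 2.1 times the sum of Has1 and Has3. Dcn, a proteoglycan of mature connective tissue, averaged 1.83 ± 0.355 TPM. Among the glycoproteins 37 of 46 were detected, led by the microfibril gene Mfap2 at 304, 382, 319 and 344 TPM and by Fn1, fibronectin, at 254, 194, 242 and 146 TPM.

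Of 39 matrix protease and inhibitor genes 26 were detected, and of 22 matrix receptor genes 19. Mmp2 and its activator Mmp14 averaged 153 ± 10.2 and 96.8 ± 3.98 TPM, and the inhibitor Timp2 68.8 ± 5.53 TPM, with no overlap between neighbours. The protease list had 6 genes with no count, namely Mmp3, Mmp7, Mmp10, Mmp12, Mmp13 and Timp4, of which Mmp13 is the collagenase of maturing cartilage and bone. Together the 4 libraries held 63.7 M counts, so the floor of 3 counts lay at 0.0471 CPM over all 4. It is an approximate limit for a gene with 0 counts and covers counting error only. Itgb1, the shared beta chain of matrix-binding integrins, averaged 195 ± 13.4 TPM and Itgb5 156 ± 2.41 TPM. Of 11 laminin genes 8 were detected, led by Lamb1 at 98.0 ± 12.6 TPM and Lamc1 at 77.7 ± 17.4 TPM, whose ranges overlapped.

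**Figure D3:**
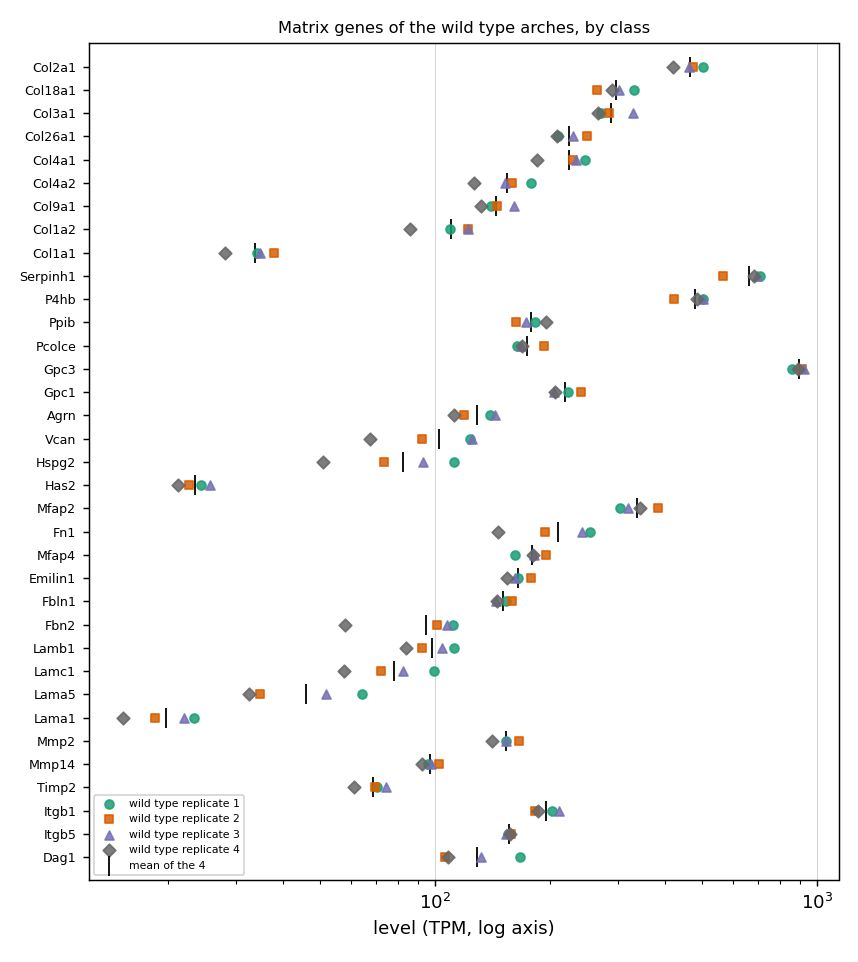
Level of 35 matrix genes in TPM on a log axis for each of the 4 wild type libraries, with the mean as a bar, in the order collagens, collagen processing, proteoglycans and hyaluronan, glycoproteins, laminins, proteases and receptors. Gpc3, Serpinh1 and Col2a1 stand highest in their classes, and replicate 4 is lowest for the long genes Vcan, Hspg2, Fn1, Fbn2 and Lama5.

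Several matrix genes are long, and their levels differed between libraries in the way long genes did in general. Vcan, the proteoglycan versican, had 123, 92.2, 125 and 67.5 TPM, Hspg2, the basement membrane proteoglycan perlecan, had 112, 73.3, 92.8 and 50.9 TPM, and Lama5 had 64.2, 34.7, 51.7 and 32.5 TPM. Replicate 4 was the lowest library for these 3 genes and for Fn1 and Fbn2. When the median deviation of genes of like length was removed from each library, the coefficient of variation was 12.3% in place of 26.9% for Vcan, 14.7% in place of 31.9% for Hspg2 and 7.53% in place of 23.7% for Fn1. For the summed laminin list it was 6.42% in place of 17.0%, and over all genes of 5 TPM or more the median was 7.06% in place of 9.07%. Whether length itself or another property of these genes moved was not tested.

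Markers of the labelled tissue were present throughout. All 12 arch mesenchyme markers were detected, with a summed level of 1355, 1603, 1437 and 1377 TPM in replicates 1 to 4, and all 15 proliferation markers, with 4182, 4161, 4262 and 3904 TPM. Top2a, Mcm6 and Pcna, which act in DNA replication and chromosome separation, averaged 456 ± 48.2, 375 ± 13.7 and 358 ± 21.3 TPM. The mesenchyme receptor gene Pdgfra had 110, 104, 116 and 77.0 TPM. The female label was met by Xist, the RNA that silences one X chromosome in females, at 334, 149, 208 and 131 TPM, while none of 6 Y-linked genes passed 0.424 TPM in any library and Zfy1 and Usp9y had no count. Xist is 17918 bases long, and its coefficient of variation was 27.9% after the adjustment for length in place of 44.6%.

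Each of the other arch tissues had markers that were detected. Of 16 surface epithelium markers 15 were detected, summing to 740, 561, 699 and 768 TPM, lowest in replicate 2. Cldn6, a claudin of embryonic epithelia, led at 147 ± 19.1 TPM, with the simple keratins Krt18 and Krt8 at 103 ± 16.0 and 83.3 ± 12.2 TPM, the adhesion gene Epcam at 75.1 ± 12 TPM and the ectodermal factor Trp63 at 40.8 ± 8.12 TPM. For pharyngeal endoderm 8 of 12 markers were detected, with a sum of 62.7, 59.7, 59.8 and 69.1 TPM. Foxe1 led at 13.0 ± 2.2 TPM, with the ligand gene Shh at 13.1, 12, 12.9 and 12.1 TPM. The epithelium and endoderm sums come from different genes and do not compare the amounts of these tissues. All 14 endothelial markers were detected, summing to 415, 383, 424 and 391 TPM, with the vascular cadherin Cdh5 at 44.8 ± 7.61 TPM and the receptor gene Kdr at 39.6 ± 7.13 TPM. Of 10 pericyte and smooth muscle markers 7 were detected, led by Pdgfrb and Notch3 at 89.9 ± 7.15 and 79.0 ± 11.4 TPM. The 3 highest members made up 87.2% of the sum, while Cnn1 and Myh11 averaged 0.326 and 0.135 TPM. Acta2, smooth muscle actin, was low and uneven at 4.26, 2.32, 5.9 and 11.8 TPM.

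Markers of muscle progenitors in the arch core stood at low levels. Of 12 branchiomeric muscle markers 7 were detected, summing to 61.7, 68.7, 61.2 and 67.6 TPM. Desmin, encoded by Des, led at 30.3 ± 3.71 TPM, and Tcf21 and Msc, factors of the head muscle progenitors, averaged 10 ± 0.489 and 4.78 ± 1.19 TPM. The myogenic factors Myf5 and Myod1 stood at 2.48 ± 0.455 and 1.31 ± 0.227 TPM, and their ranges did not overlap. Macrophage and leukocyte markers were low but nearly complete, with 12 of 13 detected at a sum of 79.4, 63.2, 74.7 and 68.2 TPM. Red cell markers had the highest sum of the cell type marker lists, at 13781, 8208, 11012 and 19935 TPM for 13 genes, a spread of 2.43-fold between the lowest and the highest library.

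Markers of tissues next to the arches were mostly under the threshold. Of 8 cardiomyocyte markers Myl7 and Tnni3 were detected, at 7.14 ± 2.26 and 5.88 ± 0.857 TPM, while the heart myosin gene Myh6 averaged 0.225 ± 0.0786 TPM. Of 13 brain and neural tube markers 4 were detected, led by Gbx2 at 12.9 ± 2.39 TPM and Emx1 at 10.2 ± 1.84 TPM, and Nkx2-2, a gene of the ventral neural tube, had no count. Of 9 otic and lens markers Foxe3, a lens factor, was detected at 3.35, 5.0, 1.29 and 2.6 TPM, and Oc90, which encodes an otoconial protein, had no count.

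**Figure D4:**
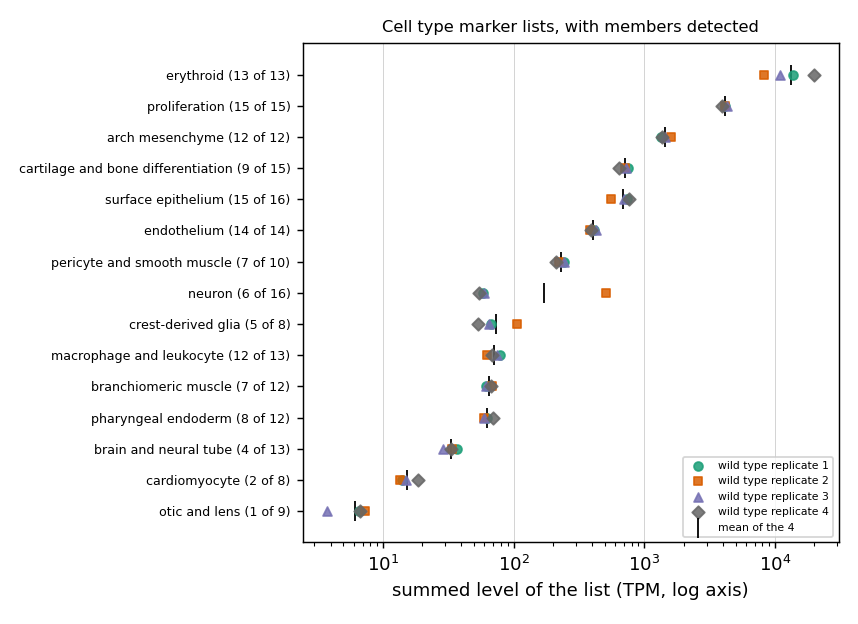
Summed level of each cell type marker list in TPM on a log axis for each of the 4 wild type libraries, with the mean as a bar; the label gives the members detected of those listed. Replicate 2 stands apart for neuron markers at 507 TPM, while the other 3 libraries lie between 54.8 and 59.3 TPM.

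Of the marker lists, neuronal markers showed the widest spread between libraries. Their summed level was 58.8 TPM in replicate 1, 507 TPM in replicate 2, 59.3 TPM in replicate 3 and 54.8 TPM in replicate 4, so replicate 2 stood at 8.8 times the mean of the others. Every one of the 16 markers was highest in replicate 2. In that library 14 of them reached 1 TPM, against 7, 7 and 6 in replicates 1, 3 and 4. Tubb3, neuronal beta tubulin, had 15.8, 187, 15.9 and 12.3 TPM, Nefl, a neurofilament subunit, had 2.52, 65.5, 2.0 and 1.94 TPM, and Neurod1, a factor of sensory neuron differentiation, had 0.563, 18.2, 0.985 and 0.576 TPM. Pou4f1, a factor of sensory ganglia, had 0.419, 14.9, 0.353 and 0.216 TPM. Isl1, which epithelium and mesoderm also express, was the exception in size at 27.8, 37.3, 28.4 and 28.3 TPM.

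Glial markers of crest origin moved with the neuronal ones in part. Their sum was 67.0, 107, 65.1 and 53.5 TPM, with Sox10, the factor of crest cells and glia, at 7.8, 26.6, 8.48 and 8.09 TPM. Erbb3 and Cdh19 were not highest in replicate 2. The summed brain and neural tube list was 33.7 TPM in replicate 2, within the range of 29.0 to 37.1 TPM of the other 3. Gbx2, Emx1 and Otx2 made up 82.6% of its mean sum, so the sum says little about the other members. In replicate 2 the red cell sum was 0.551 times and the surface epithelium sum 0.763 times the mean of the others. The arch mesenchyme sum was 1.15 times that mean. Whether replicate 2 held tissue from beside the arches was not tested. Means over all 4 libraries of neuronal genes therefore describe no single library.

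The spread of most genes was smaller. Over 10522 genes of at least 5 TPM and 200 bases, the median coefficient of variation was 9.07%, with 10% of genes below 4.07% and 10% above 18.9%. The biological coefficient of variation, the spread beyond counting error that edgeR estimates from counts, was 0.114 over 13334 genes, and ran from 0.0945 without replicate 4 to 0.131 without replicate 3. A coefficient of variation over 50% was found for 22 of the 10522 genes. The 20 genes of the largest variation included 10 gene models under 200 bases, small RNAs whose counts are few. Of the 20 most variable genes of 200 bases or longer, 17 were highest in replicate 2 and 3 in replicate 4. These included Ppp1r17 at 0.108, 20, 0 and 0.118 TPM, the neuropeptide gene Sst, somatostatin, at 0.625, 67.9, 0.373 and 1.37 TPM, and Npr2, a natriuretic peptide receptor of sensory axons, at 8.91, 31.3, 9.21 and 9.81 TPM. Of these 20 genes, 10 averaged under 5 TPM in the other 3 libraries and so entered the list through replicate 2. Among genes of at least 5 TPM over replicates 1, 3 and 4, the 20 most variable shared 3 with that list, and 15 of them were highest in replicate 1 and 5 in replicate 4.

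At the other end stood the 10 least variable genes of at least 100 TPM, of which 5 are given. Arf1, a GTPase of vesicle transport, had 480, 485, 482 and 486 TPM, a coefficient of variation of 0.626%. Actr1b, a part of the dynactin complex, averaged 191 ± 1.51 TPM, Nsun2, an RNA methyltransferase, 172 ± 1.4 TPM, Rbbp7, a histone-binding protein, 349 ± 2.93 TPM, and the mitotic kinase gene Aurkb 182 ± 1.93 TPM. By list, the median coefficient of variation was 5.6% for proliferation markers, 7.73% for collagen processing, 10.2% for Dlx genes, 13.2% for arch mesenchyme and 36.1% for red cell markers. These medians cover the list members of at least 5 TPM and 200 bases.

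**Figure D5:**
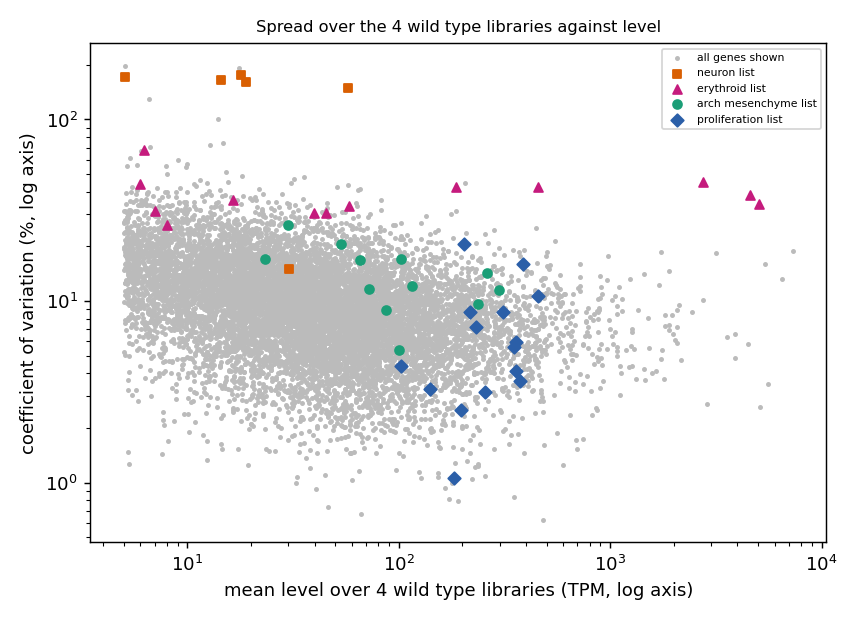
Coefficient of variation over the 4 wild type libraries in percent against mean level in TPM, both on log axes, for 10522 genes, with neuron, erythroid, arch mesenchyme and proliferation markers in colour. Of the 6 neuron markers shown, 4 averaged under 5 TPM in replicates 1, 3 and 4 and are plotted through their level in replicate 2; erythroid markers lie above most genes of their level, and the proliferation markers have a median of 5.6%.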

How the data were processed

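RNA-seq libraries were made from polyadenylated RNA with an Illumina stranded mRNA kit, per the labels' protocols. The submitters' processing notes name CASAVA 1.8.2, featureCounts and the build mm10. Aligner, annotation release and strand setting: not given in the sources used here. Raw, unnormalized counts were deposited by the authors for each gene beside its length. The files of single samples held the same values as the series table, with 0 differing. Of 27179 entries, 568 without a gene identifier (0.221% to 0.242% of counts) were left out. Of 26611 identifiers, 1336 had no symbol (0.379% to 0.564% of counts). Hbb-bt and Ahsp were not matched.

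CPM and TPM were computed here from the counts and the deposited lengths (pandas 2.3.3, numpy 2.4.6), and the biological coefficient of variation with edgeR 4.0.16 (TMM scaling, filterByExpr) in R 4.3.3, which was tested on simulated data. Coordinates are from RefSeq on GRCm38.p6, the assembly that mm10 names. No group was compared, and single libraries far from the others were marked by Dixon's critical value. Intervals and floors cover counting error only.

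The members, lists and rule for named genes were chosen with earlier results of these data known. The rule names the 20 most abundant genes outside ribosomal protein genes, up to 6 of each factor family and marker list and up to 8 of each matrix list by mean TPM, list members with no count, and the 20 most and 10 least variable genes. Members of the neuron and glia lists in replicate 2, long noncoding RNAs, imprinted and signalling genes, Col1a1, Has2, Acan, Hand1, Foxc1, Sp7, Dcn, Alx1, Myod1 and Trp63 are named beyond this rule, by a choice made with their values in view, as were the list of variable genes of 200 bases or longer and the adjustment for length. Alternatives were other detection thresholds, TMM or RLE scaling, removal of globin genes, thinning to the smallest total, no filter on low counts, other promoter windows and each library left out in turn.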

Additional observations from a re-analysis of the deposited data

Results flagged for a closer look

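Of 425 sets of 4 wild type values examined (summed lists and named genes), 39 held 1 library whose gap to the nearest of the others was above Dixon's critical value for 4 samples as a share of the whole range. Chance gives about 1 in 20 for independent sets, a rate that does not apply here, since many genes were named for their spread or with their replicate 2 values in view and some belong to the summed lists. Replicate 2 was that library in most of them. It was high in the summed neuron list (507 TPM) and in the summed LIM homeobox list (289 TPM). Among single genes it was high for Tubb3 (187 TPM), Isl1 (37.3), Nefm (64.7), Nefl (65.5), Stmn2 (49.9), Neurod1 (18.2), Sox10 (26.6), Pou4f1 (14.9), Scrt2 (2.98) and Scrt1 (1.55), which are genes of neurons, their progenitors or glia. It was also high for Ppp1r17 (19.96 TPM), Sst (67.9), Sncg (19.5), Ppp1r14a (34.6), Npr2 (31.3), Rtn1 (13.6), Mreg (17.1) and the small RNA gene Mir199a-1 (11.8). It was high by smaller factors for Dlx5 (142 TPM), Tgif2 (91.6) and Six5 (41.8). Replicate 2 was low for the summed BMP ligands (103 TPM), Gpc2 (115), Wnt9b (12.2) and Lmx1a (0.928).

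Replicate 4 was low for the summed TALE list (919 TPM), Tcf12 (207) and Pdgfrb (79.2), and high for Lyz2 (10.48), Fgf8 (58.9), Rpl32 (2406), Pax8 (1.14) and Snora15 (17.7). Replicate 3 was high for Meis1 (72.3 TPM) and Tgif1 (86.9). Replicate 1 was low for Glis1 (0.581 TPM) and high for Smo (210).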

How the results depend on the processing

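No paired analysis was possible because the wild type group was described alone and no groups were compared. Of 402 values recomputed under an alternative, 400 moved by less than the spread between libraries or, for counts of genes, by less than 1.5 times. For summed levels with 1 library left out this outcome was fixed. Dropping 1 of 4 values cannot move a mean by the whole SD over the 4. Those values therefore do not show that the levels are stable. The share of the 100 most abundant genes was 13.5% of counts in place of 18.7% of TPM, since TPM divides by length. The share of detected-gene promoters with TATAAA was 6.22% over the whole 250 bases in place of 1.2% at 40 to 20 bases before the start. Detected genes numbered 14235 at 0.5 TPM, 10887 at 5 TPM and 13315 after thinning to the smallest total, and 13401 to 13503 with 1 library left out. The summed neuron level is counted among the 400 only because of this limit on the mean, and its SD is set by replicate 2. It was 57.6 TPM without replicate 2 in place of 170 TPM, and 207 to 208 TPM without any 1 of the others. The summed red cell level ran from 11000 TPM without replicate 4 to 14909 TPM without replicate 2. With 11.5 to 12.4 M counts in 3 of the libraries, low levels such as those of Acan or Hoxa3 rest on few counts.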

Other observations

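Imprinted genes, which are expressed from 1 parental allele, were examined as a list chosen after abundant members had been seen. Of 29 genes 27 were detected, and their summed level was 14667, 14762, 14947 and 14519 TPM in replicates 1 to 4, a coefficient of variation of 1.22%. Besides H19, Mest and Nnat, the growth factor gene Igf2 had 1845, 1668, 1768 and 1678 TPM, the growth inhibitor gene Grb10 had 1213, 1112, 1175 and 916 TPM, and Gnas, a G protein subunit, averaged 835 ± 37.6 TPM (SD, n = 4). The sum was thus steadier over the libraries than the red cell sum of a similar level, whose coefficient of variation was 37.9%. Single imprinted genes could move more than their sum, and in opposite directions. H19 was highest and Grb10 lowest in replicate 4, with coefficients of variation of 6.31% and 11.9%.

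Signalling genes were listed in the same way. Summed receptor levels were above summed ligand levels for the Wnt and FGF pathways, with Frizzled receptors summing to 445 ± 37.2 TPM and Wnt ligands to 171 ± 6.31 TPM, and FGF receptors to 213 ± 15.6 TPM and FGF ligands to 90.1 ± 7.08 TPM. All 10 Frizzled genes were detected, led by Fzd2 at 195 ± 17.1 TPM, and 9 of 19 Wnt genes, led by Wnt6 at 50.9 ± 3.97 TPM and Wnt5a at 38.8 ± 4.85 TPM. Of 22 FGF genes 6 were detected, and Fgf8, a signal of arch ectoderm, had 42.7, 43.5, 41.8 and 58.9 TPM. Bmp7 and Bmp4, ligands of arch epithelium, averaged 47.8 ± 7.53 and 35.7 ± 4.56 TPM, and the receptor gene Bmpr1a 141 ± 20 TPM. In the endothelin pathway, which directs lower jaw identity, the ligand gene Edn1 had 4.04, 3.26, 2.48 and 2.63 TPM, and its receptor gene Ednra 35.7, 36.0, 40.5 and 29.6 TPM. The hedgehog transducer gene Smo had 210, 199, 201 and 201 TPM, a coefficient of variation of 2.34%, and the receptor gene Ptch1 90.9, 70.9, 91.7 and 53.6 TPM.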
